A study of Mus musculus with 6 samples.

Results

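The interferon regulatory factors, or IRFs, are transcription factors that turn on interferon genes and the genes that interferons induce. The genes described here are Irf1, Irf2, Irf3, Irf4, Irf5, Irf7, Irf8, Irf9 and Irf2bp2, the last of which encodes a partner protein of IRF2. They were chosen by gene symbol in the platform annotation, which gave 18 of the 45281 probes on the array, and 9 of the 19057 genes with a named probe. The samples were primary macrophages grown from the bone marrow of wild-type mice, labelled as 10 week old males of the strain c57Bl6/J. Cells received 5 µM RI-BPI peptide (3 arrays) or 5 µM control peptide (3 arrays) for 12 h in MSF media, and both groups were otherwise labelled alike. RI-BPI is a retro-inverso peptide made to keep the transcriptional repressor Bcl6 from its corepressors SMRT and NCoR, and the comparison asks which transcripts change with it.

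The labels call the arrays of each group technical replicates. The p-values below thus speak of differences among arrays only, and how cultures or animals vary was not measured. Detected probes numbered 12931 to 13843 per RI-BPI array and 13866 to 14357 per control array, and the median signal of all 6 arrays lay between 45.8 and 47.4. All 7 macrophage markers with a named probe were detected on every control array. On the RI-BPI arrays Itgam was detected on 0 of 3, and the others on every array. Their summed signal was 42350 to 47830 on RI-BPI arrays, against 48400 to 53550 on control arrays, and 4 of the 7 were lower with RI-BPI. Lyz2 and Cd14, the brightest of them, weigh most in the sum and were not called (-0.04 and 0.09 on the log2 scale), while Fcgr1 fell by 1.73. Csf1r was not called at its brightest probe (-0.09) but differed by -0.96 at another. Among markers of other cells, 7 of 8 for dendritic cells, 6 of 7 for lymphocytes and 6 of 7 for neutrophils and their precursors were undetected on all 6 arrays. The exceptions were Ccr7, Cd4 and S100a8, and S100a8 was higher with RI-BPI by 0.36 on the log2 scale. The part of these shifts in the results below was not tested. In RNA from a whole culture, fewer cells of a type and less RNA per cell cannot be told apart.

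IRFs share a DNA-binding domain that recognises repeats of the bases GAAA. A pair of these repeats makes up the interferon-stimulated response element, or ISRE, in the promoters of antiviral genes. In macrophages, IRF3 is present at rest and is phosphorylated downstream of nucleic acid and endotoxin sensors, after which it helps to switch on interferon beta. Secreted interferon then acts through ISGF3, a complex that contains STAT2 and IRF9 and induces among others the gene of IRF7, and IRF7 in turn amplifies interferon production. IRF1 and IRF8 serve the response to interferon gamma, IRF5 acts downstream of Toll-like receptors on inflammatory cytokine genes, and IRF4 is linked to alternative activation.

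Promoter sequence is shown for the members whose upstream DNA held a match to an element of these pathways, and for Irf7, the member that changed most. The sequences are from RefSeq (GRCm38.p6), where all 9 members had a window of 250 bases before to 50 bases after a gene start. The sources used here do not name the build behind the array's probes. Capitals mark, on either strand, the ISRE core GAAANNGAAA, the STAT element GAS as TTCNNNGAA, or the kappa B element bound by NF-kB. Only bases upstream of the RefSeq gene are printed.
Irf7, chr7:141266500-141266674, minus strand: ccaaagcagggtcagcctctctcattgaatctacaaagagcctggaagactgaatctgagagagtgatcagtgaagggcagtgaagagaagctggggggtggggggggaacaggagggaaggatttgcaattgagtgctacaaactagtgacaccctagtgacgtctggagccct
Irf1, chr11:53769914-53770013, plus strand: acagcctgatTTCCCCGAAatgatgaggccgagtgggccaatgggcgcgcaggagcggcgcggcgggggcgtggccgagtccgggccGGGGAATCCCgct
Irf2, chr8:46739495-46739539, plus strand: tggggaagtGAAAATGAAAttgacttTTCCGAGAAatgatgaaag
Irf2, chr8:46739718-46739744, plus strand: cgggggtgggGGGGATTTCCagcctcg
Irf8, chr8:120736177-120736223, plus strand: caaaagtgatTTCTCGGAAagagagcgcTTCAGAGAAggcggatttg

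Irf1 held a GAS and a kappa B match, Irf2 an ISRE, a GAS and a kappa B match, and Irf8 a pair of GAS matches. None of these matches overlapped another. The windows of Irf3, Irf4, Irf5, Irf7, Irf9 and Irf2bp2 held none of these letters, which says nothing of the factors themselves. Over 32851 promoter windows of the same length, 3.44% held the ISRE core, 8.3% the GAS and 4.51% the kappa B element.

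The family did not move as a block. Irf7 and Irf5 fell with RI-BPI, Irf9 rose slightly, and the other 5 measured genes did not pass the test at the probe used to represent them. Probes were kept where 3 or more of the 6 arrays had a detection p-value below 0.01. Of the 18 probes 15 were kept, and they covered 8 of the 9 genes. Irf7 and Irf5 had 1 probe each, so their falls could not be checked at another probe. A gene is represented by its brightest kept probe and called where limma's Benjamini-Hochberg adjusted p, over all 13975 kept probes, was below 0.05. By this rule 2 of the 8 measured IRF genes were lower with RI-BPI, against 30.3% of the 8205 genes measured, and 1 of 8 was higher, against 30.3%. Their median change was -0.05 on the log2 scale, against 0.01 over all genes. The share of lower calls was near the background, and that of higher calls was below it. By probe, 4 of 15 were lower (30.5% of all kept probes were) and 1 of 15 was higher (29.1% of all). The groups did not overlap at 5 of the 15 kept probes, against 63.3% of all kept probes. Probes of 1 gene are not independent, and the difference of these shares from the background was not tested.

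**Figure D1:**
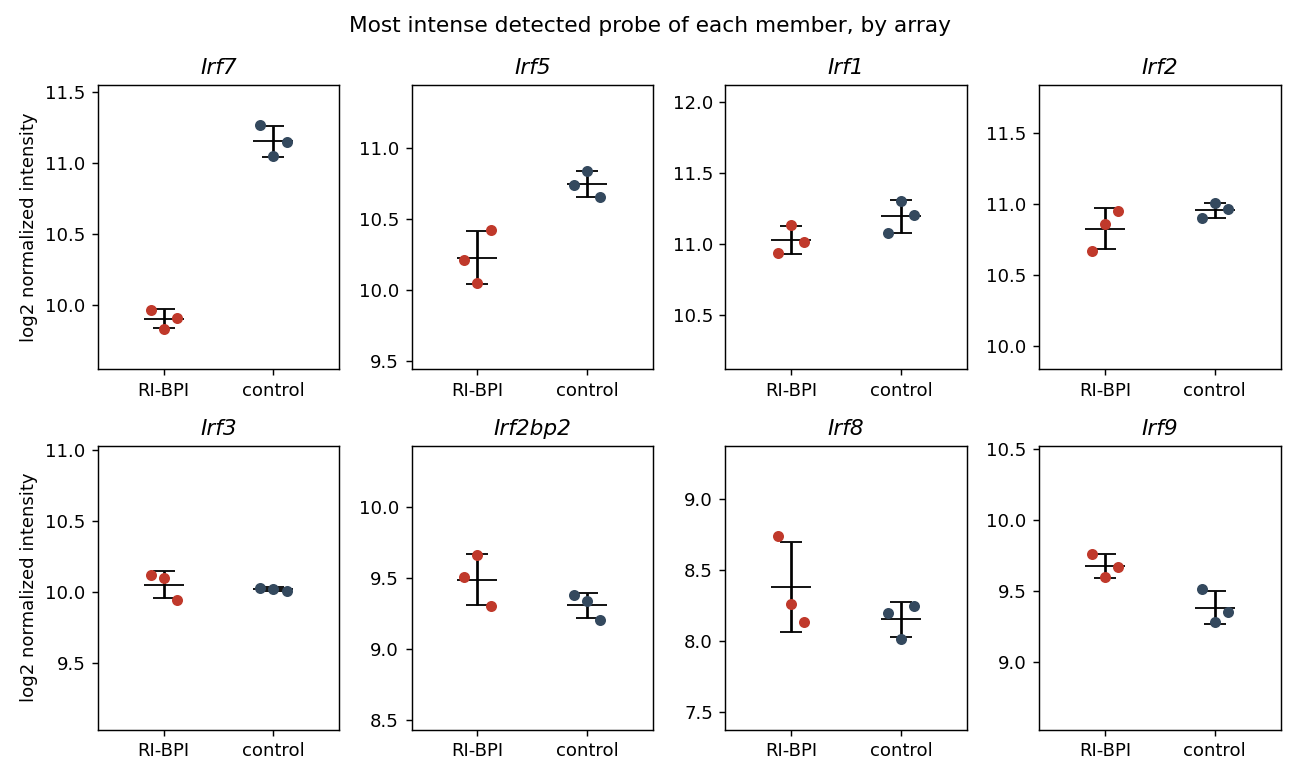
Normalized log2 intensity of the brightest kept probe of each measured IRF gene on each array (points), with RI-BPI left of control peptide and bars for the mean ± SD of 3 arrays. The groups are apart for Irf7, Irf5 and Irf9, and overlap in the other panels.

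Irf7, the amplifier of interferon production, changed most. Its signal, the mean bead intensity before normalization, was 1091, 933 and 932 on the RI-BPI arrays, against 2589, 2219.9 and 2224 on the control arrays. Every RI-BPI array lay below every control array. The normalized log2 values averaged 9.90 ± 0.07 with RI-BPI and 11.15 ± 0.11 with control peptide (SD, n = 3 each). The difference was -1.25 ± 0.11 (SE), with a 95% interval of -1.48 to -1.02, or 2.38-fold lower with RI-BPI (limma adjusted p = 1.47e-08). Irf7 ranked 220 from the lowest of 8205 genes. It was the only IRF gene that was lower by at least 1.5-fold at its brightest probe, as were 15.2% of all genes.

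Irf5, which drives inflammatory cytokine genes after Toll-like receptor signals, was lower by less. Its signals were 1295, 1082 and 1302 on the RI-BPI arrays, against 1793, 1923 and 1565 on the control arrays. The groups did not overlap. The log2 averages were 10.23 ± 0.19 with RI-BPI and 10.74 ± 0.09 with control peptide, a difference of -0.52 ± 0.12 (95% interval -0.76 to -0.27, 1.43-fold lower, adjusted p = 0.000934).

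Irf9, the DNA-binding subunit of ISGF3, was higher at its brighter probe. The signals there were 939, 799 and 787 on the RI-BPI arrays, against 782, 675 and 655 on the control arrays. The lowest RI-BPI array was just above the highest control array. The difference of 0.29 ± 0.11 (95% interval 0.06 to 0.52, 1.22-fold) passed the test with an adjusted p of 0.0291. The call was lost without RI-BPI replicate 1 (adjusted p = 0.0906), control replicate 2 (0.122) or control replicate 3 (0.0806), and with median centring in place of quantile normalization (0.0782). A dimmer probe read 86.3, 88.6 and 96.8 with RI-BPI, against 107, 101 and 98.2 with control peptide, lower on every RI-BPI array. After normalization the groups overlapped, and the difference of -0.09 ± 0.12 did not pass (adjusted p = 0.536). The rise of Irf9 is thus seen at 1 of 2 probes.

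Irf3, the factor present at rest, showed no change that passed the test. Its brightest probe read 1215, 1129 and 955 on the RI-BPI arrays, against 1104, 1105 and 1019 on the control arrays. The RI-BPI arrays lay on both sides of the control arrays. The difference was 0.03 ± 0.11, and the 95% interval of -0.19 to 0.25 bounds it. The other Irf3 probes differed by 0.06 ± 0.13 and 0.22 ± 0.12 (adjusted p = 0.697 and 0.117), also with overlap. Without RI-BPI replicate 2 the dimmest of them reached 0.32 (adjusted p = 0.0309).

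Irf1, an activator of interferon gamma responses and of antigen presentation genes, had 5 probes whose changes differed. The brightest read 2097, 2261 and 1951 with RI-BPI, against 2271, 2645 and 2288 with control peptide. The next read 1676, 1646 and 1384 with RI-BPI, against 1559, 1386 and 1510.2 with control peptide. After normalization both overlapped between the groups, with differences of -0.17 ± 0.11 (adjusted p = 0.21) and 0.09 ± 0.11 (adjusted p = 0.521). A pair of much dimmer probes gave another picture. The third read 109, 101 and 105 with RI-BPI, against 173, 162 and 134 with control peptide. The fourth read 103, 103 and 97.9 with RI-BPI, against 158, 164 and 139 with control peptide. At both, every RI-BPI array lay below every control array. The differences were -0.61 ± 0.12 (1.52-fold lower, adjusted p = 0.000183) and -0.65 ± 0.11 (1.57-fold lower, adjusted p = 3.61e-05). Their size depended on the processing, from -0.74 to -0.43 at the third probe and from -0.79 to -0.45 at the fourth. Both stayed called lower in all 14 alternative runs that included them. The fifth probe was not kept. It was detected on 0 of 3 RI-BPI arrays and 2 of 3 control arrays, with signals of 42.8 to 50.1 with RI-BPI and 51.6 to 57.8 with control peptide.

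Within each array, the mean of the dim pair minus the mean of the bright pair differed by -0.59 on the log2 scale, RI-BPI minus control peptide (SD 0.10 with RI-BPI and 0.18 with control peptide, n = 3 each). This comparison was chosen after the values were seen. The groups did not overlap, and the exact two-sided permutation test gave p = 0.1, the smallest that 3 against 3 arrays allow. On a comparison picked from these same values the test decides nothing. The same comparison of the dimmer with the brighter kept probe gave -0.38 for Irf9 and -0.33 for Irf2bp2, also with no overlap and an exact p of 0.1. The dimmer probes had the lower difference in these 3 genes, out of 4 IRF genes with several kept probes. Irf3, which also had several kept probes, was left out of this comparison. Its dimmer probes went the other way, with differences of 0.06 and 0.22, against 0.03 at its brightest probe. Which part of the Irf1 transcript each probe reads is not given in the files, so the direction of Irf1 is left unstated. Disagreement of this kind was common on the array. Of 2893 genes with several kept probes, 35.6% were called at some probes and not at others, and 3.35% in opposite directions. Among the 4 such IRF genes, Irf1 and Irf9 were called at some probes only, and Irf3 and Irf2bp2 at none.

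**Figure D2:**
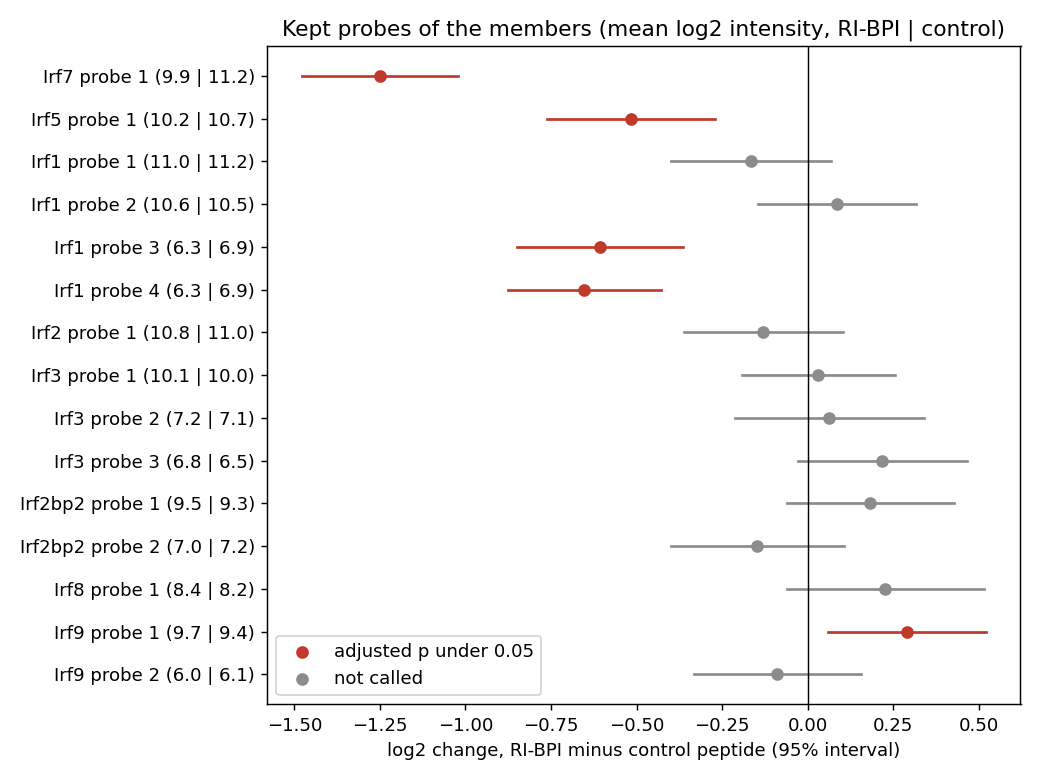
Difference in normalized log2 intensity, RI-BPI minus control peptide, at each of the 15 kept IRF probes, with 95% intervals from limma and the mean log2 level of each group at the label. The intervals of Irf7, Irf5 and the pair of dim Irf1 probes lie wholly below 0, and that of the brighter Irf9 probe above 0.

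Irf2, which competes with IRF1 for the same DNA and mostly represses, read 1763, 1862 and 1849 on the RI-BPI arrays, against 2012, 2164 and 1954 on the control arrays. On the signals before normalization every RI-BPI array was lower, but the normalized values overlapped. The difference was -0.13 ± 0.11, with a 95% interval of -0.36 to 0.10 (adjusted p = 0.332). Irf2bp2, the corepressor that acts with IRF2, read 790.5, 825 and 616 with RI-BPI, against 713, 695 and 590.3 with control peptide at its brightest probe. The groups overlapped and the difference of 0.18 ± 0.12 did not pass (adjusted p = 0.187), although it did without RI-BPI replicate 3 (0.28, adjusted p = 0.0481). A second Irf2bp2 probe gave -0.15 ± 0.12 (adjusted p = 0.311), and the third, at 46.0 to 52.1 on all arrays, was not kept.

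Irf8, a factor of the monocyte and dendritic cell lineages that partners with PU.1, read 477, 330.1 and 287 on the RI-BPI arrays, against 335, 301 and 322 on the control arrays. RI-BPI replicate 1 was well above the other 5 arrays, which overlapped. The standard error over the beads of that array was 35.7, so the excess is larger than bead error. The difference was 0.23 ± 0.14 (95% interval -0.06 to 0.51, adjusted p = 0.165). It was 0.05 without RI-BPI replicate 1, and 0.35 without RI-BPI replicate 3, where it passed the test (adjusted p = 0.031). Most dendritic cell markers were undetected on every array, as given above.

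Irf4, which is linked to alternative activation, was not detected on any array. Its signals were 48.0, 50.8 and 43.1 with RI-BPI, against 48.8, 44.0 and 42.1 with control peptide, at the level of the median probe. The detection p-values lay between 0.0502 and 0.703. The arrays give no change for Irf4.

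**Figure D3:**
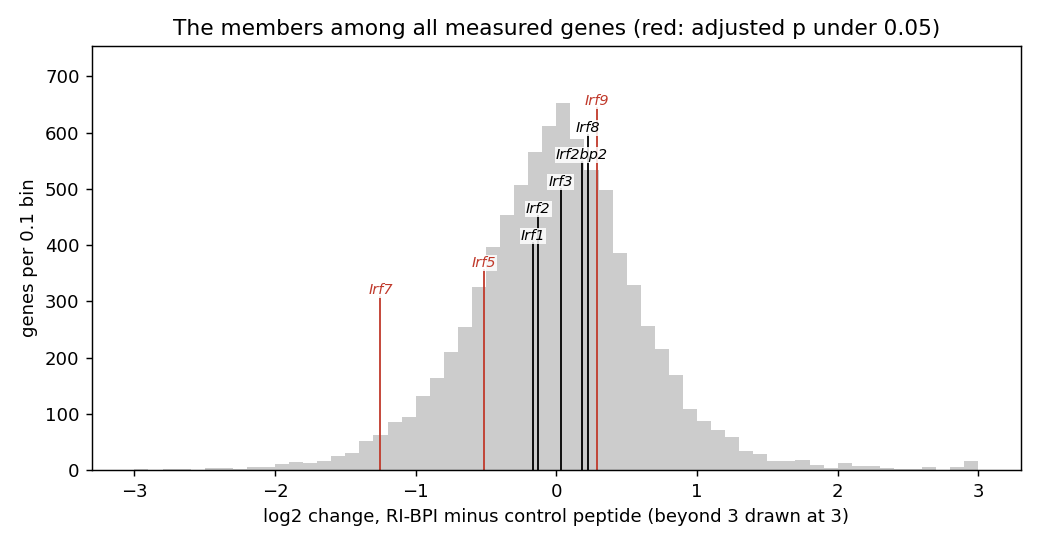
Distribution of the log2 difference, RI-BPI minus control peptide, over the 8205 measured genes (grey), with the 8 measured IRF genes marked by lines whose heights carry no value. Irf7 lies in the lower tail, and Irf5 and Irf9 lie within the body of the distribution.

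The profile of Irf7 was set against all other genes by the root mean square distance between log2 values over the 6 arrays, after centring each gene. The 3 nearest were Wfdc17 (distance 0.0468), the 2'-5' oligoadenylate synthetase family gene Oas3 (0.0473) and the guanylate-binding protein gene Gbp3 (0.0487), against a median of 0.646 over all genes. Oas3, an interferon-induced antiviral gene, fell by 1.22 ± 0.11 (adjusted p = 1.85e-08), and Wfdc17 and Gbp3 fell by 1.29 and 1.17. For Irf9 the nearest were Sec22b (0.0423), Rgl2 (0.0428) and Zfp738 (0.0437), against a median of 0.264. Their differences were 0.32, 0.29 and 0.23, and that of Zfp738 did not pass the test (adjusted p = 0.0888). Since the 6 arrays fall into 2 groups, a short distance mostly means a difference of similar size.

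Around the family, 8 lists of partner and pathway genes covered 121 genes, of which 89 were measured. Of these 19 rose, 49 fell and 21 were not called, where 30.3% of all measured genes rose and 30.3% fell, the background for each list below. The lists were chosen with earlier results of these data known, and the fall of interferon-responsive genes had been seen before. Their counts are thus a description.

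Among 10 measured partners of the family, 1 rose and 3 fell, and 6 did not pass the test. The median change was 0.05. Irf2bp1, a paralog of Irf2bp2, rose by 0.62 ± 0.12 (adjusted p = 0.00016). Batf2, an AP-1 family protein that pairs with IRF1, fell by 1.08 ± 0.11 (adjusted p = 1.76e-07), and Trim21, a ubiquitin ligase that acts on IRFs, fell by 0.95 ± 0.12. Spi1, the gene of PU.1, differed by 0.22 and was not called.

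Of 16 measured sensors, adaptors and kinases that lead to IRF3, IRF5 and IRF7, 4 rose, 8 fell and 4 were not called. The median was -0.32, or -0.22 with Tlr9, undetected with RI-BPI, at its bound of at least 1.14-fold lower. The endotoxin receptor adaptor gene Ticam2 rose by 0.93 ± 0.11 and the ubiquitin ligase gene Traf6 by 0.77 ± 0.11. Zbp1, a nucleic acid sensor, fell by 2.77 ± 0.11 at its brightest probe, and its 2 dimmer kept probes differed by -0.62 and -0.47. Ikbke, the gene of an inducible kinase that phosphorylates IRF3 and IRF7, read 246, 246 and 242 with RI-BPI, against 546, 643 and 528 with control peptide. The groups were far apart, and Ikbke fell by 1.27 ± 0.11 (2.42-fold lower, adjusted p = 1.47e-08). Its constitutive relative Tbk1 differed by 0.14 and was not called.

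The ligand went the other way from Irf7. Ifnb1, the gene of interferon beta, read 186, 171 and 184 on the RI-BPI arrays, against 53.0, 51.4 and 56.6 on the control arrays, where it was detected on 1 of 3. The groups were far apart, and Ifnb1 was higher by 2.64 ± 0.12 (6.25-fold, adjusted p = 8.21e-13). With control signals this close to background the size rests on the background step: the difference was 1.80 without background correction, 1.69 with an offset of 50 and 1.58 in the authors' normalized table. Stat2, whose product joins IRF9 in ISGF3, read 641, 573 and 413 with RI-BPI, against 1201, 1144 and 1113 with control peptide. It was lower on every RI-BPI array, by 1.14 ± 0.13 (2.20-fold lower, adjusted p = 3.11e-07). Of the 12 measured genes of interferon receptors and JAK-STAT signalling, which include Ifnb1 and Stat2, 6 rose and 3 fell, and the median was 0.25. The receptor-bound kinase gene Tyk2 fell by 1.00 ± 0.11. Ifngr2, a chain of the interferon gamma receptor, was higher by 1.39 ± 0.11 at its brightest probe and lower at the other kept probes (-0.80 and -0.71), so its direction is unsettled.

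Among 23 measured interferon-stimulated genes of the ISGF3 type, 17 fell (73.9%, against 30.3% of all genes), 2 rose and 4 were not called, and the median was -0.57. Mx1, an antiviral GTPase, read 62.3, 74.9 and 67.5 with RI-BPI, against 161, 216 and 168 with control peptide. The groups were clearly apart, and Mx1 fell by 1.83 ± 0.14 (3.55-fold lower, adjusted p = 3.13e-09), with a difference of -1.16 in the authors' normalized table. The nuclease gene Isg20 fell by 1.48 ± 0.12. Trim25, a ubiquitin ligase of the RIG-I pathway, rose by 0.49 ± 0.12, and Oas1a rose by 0.33 ± 0.11 (adjusted p = 0.0184). The Oas1a call was lost with median centring (adjusted p = 0.165), without RI-BPI replicate 3 (0.0793) or without control replicate 1 (0.0699).

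Of 19 measured genes of the IRF1 and interferon gamma list, 14 fell (73.7%) and 2 rose, and the median was -0.55. Tapbp, the peptide-loading chaperone tapasin, fell by 3.35 ± 0.11 (10.2-fold lower) at its brightest probe and by 1.47 at another, and Gbp3 fell by 1.17 ± 0.11. Cd274, the gene of the checkpoint ligand PD-L1, read 6087, 4678 and 4993 with RI-BPI, against 2231, 1996 and 1917 with control peptide. It was higher on every RI-BPI array, by 1.42 ± 0.11 (2.67-fold, adjusted p = 4.74e-09). Irgm1, an immunity-related GTPase, was higher by 0.41 ± 0.11 at its brightest probe and lower at another (-0.67), which leaves its direction unsettled.

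The smaller lists were mixed. Among 6 measured IRF8-linked myeloid genes, 4 fell and 1 rose, and the median was -0.41. Klf4, a monocyte transcription factor that acts downstream of IRF8, rose by 2.87 ± 0.13 (7.31-fold), or 2.23 with an offset of 50 and 2.10 in the authors' normalized table, while Pml and Il18 fell by 1.01 ± 0.11 and 0.94 ± 0.11. Of the IRF5-linked cytokines only 2 of 6 were measured, and Tnf, the gene of tumour necrosis factor, rose by 0.76 ± 0.11 (adjusted p = 1.37e-05). Of the IRF4-linked genes 3 of 7 were measured. Kdm6b, a histone demethylase gene, rose by 2.07 ± 0.11 (1.38 in the authors' normalized table), and the mannose receptor gene Mrc1 fell by 2.35 ± 0.11. Il4ra, undetected with control peptide, was at least 1.22-fold higher, a call lost with an offset of 50 (adjusted p = 0.0611). The median of these 3 was 0.38, or 0.28 with Il4ra at its bound.

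**Figure D4:**
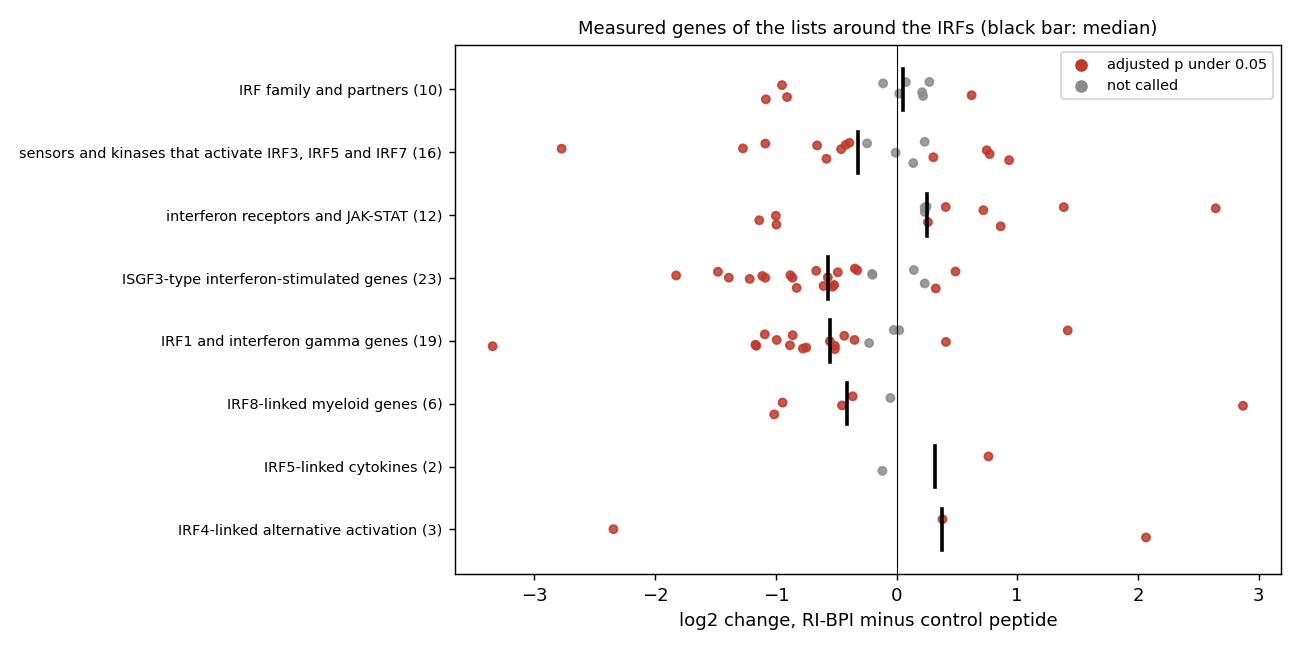
Log2 difference, RI-BPI minus control peptide, of each measured gene (points) in the 8 lists, with the number measured in brackets and a black bar for the median. Most points of the ISGF3-type and the IRF1 lists lie left of 0, and the largest increases are Klf4, Ifnb1 and Kdm6b.

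The ISRE was also counted in the promoter windows of the measured genes, and the stretches below show it in 4 of the 6 named genes outside the family that held it, along with the kappa B match of Ifnb1. The others, Oas1a, which rose, and Trim21, which fell, are not printed because their matches reach into the RefSeq gene. Capitals mark the ISRE core on either strand, with overlapping copies joined, or the kappa B element.
Gbp3, chr3:142559989-142560015, plus strand: caggacacagTTTCAGTTTCTATTTCc
Oas3, chr5:120777715-120777744, minus strand: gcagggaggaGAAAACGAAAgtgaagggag
Stat2, chr10:128270266-128270295, plus strand: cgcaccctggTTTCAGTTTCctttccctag
Irgm1, chr11:48871425-48871460, minus strand: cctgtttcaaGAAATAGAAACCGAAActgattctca
Ifnb1, chr4:88522891-88522920, minus strand: aactgaaagtGGGAAATTCCtctgaggcag

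Of 6763 measured genes with a window, 273 held the ISRE core. Of those 273, 112 were lower (41.0%) and 66 higher (24.2%), with a median of -0.13. Of the 6490 without it, 1936 were lower (29.8%) and 1978 higher (30.5%), with a median of 0.02. Within the ISGF3-type list, 7 of 9 genes with the core and 6 of 8 without it were lower. In the IRF1 list these counts were 5 of 7 with it and 6 of 8 without it. A match is a description of letters, not evidence of binding.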

How the data were processed

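The authors deposited mean bead intensity per probe and array, not normalized, with a detection p-value per probe, a bead standard error and a bead number, per the file headers. The submitters' processing notes name GenomeStudio and no version of it. A second deposited table holds intensity normalized by the authors whose method the sources used here do not give, and served as an alternative only. The numbers of beads behind a kept IRF probe were 28 to 72 per array, and the bead standard error was 4.81% to 10.95% of the signal.

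In limma 3.58.1 (R 4.3.3), intensities were corrected by normexp with the background taken from detection p-values and an offset of 16, then quantile normalized and taken to log2. Dim probes are drawn towards 0 change by the offset. All 13975 kept probes were fitted with lmFit and eBayes on group alone, and p-values were adjusted by Benjamini-Hochberg over all of them. Where a group had no detected array, the fold is a lower bound against the lowest detected signal. Only the limma fit was tried on simulated log2 values, with independent noise and far fewer changed probes than were called here. Background correction, quantile normalization and the probe filter were not part of that trial. The labels do not say whether replicate numbers pair the arrays, and the main fit took them as unpaired. Deviations of same-numbered arrays from their group means correlated at -0.007 to 0.026. Of the 6 arrays, 4 correlated best with the array of their own number in the other group. So few arrays cannot decide whether they were paired.

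The members, the gene lists and the rule for named genes were chosen with earlier results of these data known. The rule names all members, the 2 largest called increases and the 2 largest called decreases (fewer where there were fewer) of each list, Ifnb1, Stat2 and 1 more gene not reported here, and the 3 genes nearest in profile to the IRF genes with the largest rise and fall. Tbk1, Spi1, Tlr9 and the single cell type markers fall outside this rule and were named after their values were seen. Alternatives were no background correction, an offset of 50, median centring, the authors' normalized table, no filter, detection on all 6 arrays, 1 probe a gene, an intensity trend, a replicate block, and each array left out in turn.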

Additional observations from a re-analysis of the deposited data

How the results depend on the processing

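The count of lower IRF genes (2) was the same under every alternative run. That of lower IRF probes (4) was the same wherever all kept probes were fitted, which leaves out the run with 1 probe a gene. The counts of higher IRF genes and higher IRF probes did vary. With median centring no IRF gene and no IRF probe was called higher by limma (0 and 0, with 1 gene at an unadjusted p under 0.05), and Irf9 stood at 0.27 (adjusted p = 0.0782). Leaving out 1 array at a time gave 0 to 3 higher IRF genes and 0 to 3 higher IRF probes. Under the same omissions Irf9 ranged from 0.24 to 0.35, Irf8 from 0.047 to 0.35, the brightest Irf2bp2 probe from 0.10 to 0.28, and the dimmest Irf3 probe from 0.16 to 0.32. The other Irf3 probes changed sign, the brightest ranging from -0.0006 to 0.084 and the middle one from -0.072 to 0.21 (-0.049 with median centring). The cause of these shifts was not tested. Irf7 stayed between -1.31 and -1.19 when arrays were left out. With the replicate block 1 IRF gene was higher and 2 lower, and over all genes 2490 were higher and 2486 lower, so it changed no IRF call. Median centring moved the median of all genes to -0.08. Signals near background limit Irf4 and the third Irf2bp2 probe, and the dim Irf1 probes rest on signals of 97.9 to 173.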
